A study of Mus musculus with 10 samples.

Results

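Oligodendrocyte precursor cells are the dividing glia of the adult cortex from which myelinating oligodendrocytes arise. The values here are those of 10 genes that mark these cells or the steps that follow them: Pdgfra, Cspg4, Olig1, Olig2, Sox10, C1ql1, Lhfpl3, Gpr17, Bmp4 and Enpp6. They were chosen by name, as the rows of the mouse count table whose Ensembl identifier carries one of these symbols. Each symbol matched 1 of the 55536 identifiers in the table, and all 10 were among the 20301 genes with enough reads to be tested.

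Precursors divide in response to platelet-derived growth factor, which binds the receptor encoded by Pdgfra, and they carry the chondroitin sulphate proteoglycan NG2, encoded by Cspg4. Olig1, Olig2 and Sox10 are transcription factors that stay on from the precursor to the myelinating cell, so their RNA does not tell the stages apart, whereas Gpr17, Bmp4 and Enpp6 mark cells that have begun to differentiate. Some of the genes are also made outside the lineage: Cspg4 by pericytes and other mural cells of blood vessels, Pdgfra by fibroblasts, and Olig2 at low levels by some astrocytes.

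The RNA came from translating ribosome affinity purification (TRAP), in which ribosomes carrying a tagged subunit are pulled down with the RNA they hold. Mice of 3 genotypes, Il-17ra-Cre, Il-17rb-Cre and Il-17rc-Cre, received the same virus, AAV5-EF1α-Flex-EGFPL10a, in S1DZ of the primary somatosensory cortex, at 400 nl a side and 0.1 µl per min. The virus was left for 4 weeks, and cytoplasmic RNA bound to the GFP-tagged ribosomes was made into libraries with the SMART-Seq v4 kit. There were 3 Il-17ra-Cre, 3 Il-17rb-Cre and 4 Il-17rc-Cre libraries, with 39692925 to 165844244 counted reads each. The tag is made only in cells that the virus entered and that had Cre, the EF1α promoter is active in many cell types, and no group without Cre and no unpurified input was analysed here. The labels do not give the age or sex of the mice, nor whether a library came from 1 mouse or a pool. A lower value of a gene can come, among other sources, from fewer tagged cells of a type or from less RNA per cell, and these cannot be told apart. RNA carried along from untagged cells was not measured, since input and a group without Cre are lacking here.

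Before the lineage genes, the libraries were set against their labels. Il17rb RNA was no higher in the libraries labelled Il-17rb-Cre (0.614 to 0.872 CPM, read counts scaled to library size) than in those labelled Il-17ra-Cre (1.27 to 3.75), and Il17ra was present in all 10 (15.6 to 30.7 CPM). Il17rc was at 20.3 to 39.9 CPM in Il-17rc-Cre, 21.3 to 41.2 in Il-17ra-Cre and 1.03 to 3.19 in Il-17rb-Cre. It was thus low in Il-17rb-Cre but alike in Il-17rc-Cre and Il-17ra-Cre, so these receptor genes did not single out their own groups. In the Il-17ra-Cre group, library 3 stood apart from libraries 1 and 2: Rpl10a, the gene of the tagged subunit, was at 679 CPM against 58.7 and 70.9, and summed excitatory neuron markers were at 6691 CPM against 1573 and 1801. Among the Il-17rc-Cre libraries, number 2 stood apart in vascular markers, as given below. Counts that moved by over 1.5 times, or calls that were lost, when these libraries were left out are given beside the results. Where Il-17ra-Cre libraries 1 and 2 are left out, library 3 stands alone for its group and its spread is assumed to be that of the other groups, so such a p-value says little about how stable a call is.

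Across the 10 libraries the genes covered a wide range. Measured per kilobase of exon, which allows genes to be compared, Olig1 was highest in every group, at 407 ± 155 CPM per kb in Il-17ra-Cre (SD, n = 3), 18.1 ± 3.86 in Il-17rb-Cre (n = 3) and 242 ± 24.5 in Il-17rc-Cre (n = 4). Pdgfra was lowest in every group, at 0.517, 0.0386 and 0.337 CPM per kb. The genes that belong to the whole lineage, including its myelinating cells, were therefore well above the gene that is the standard mark of the precursor, in all 3 groups. The label of the gene list names precursors, and the libraries held few reads from the gene that defines them: 3, 25 and 54 Pdgfra reads in the 3 Il-17rb-Cre libraries.

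**Figure D1:**
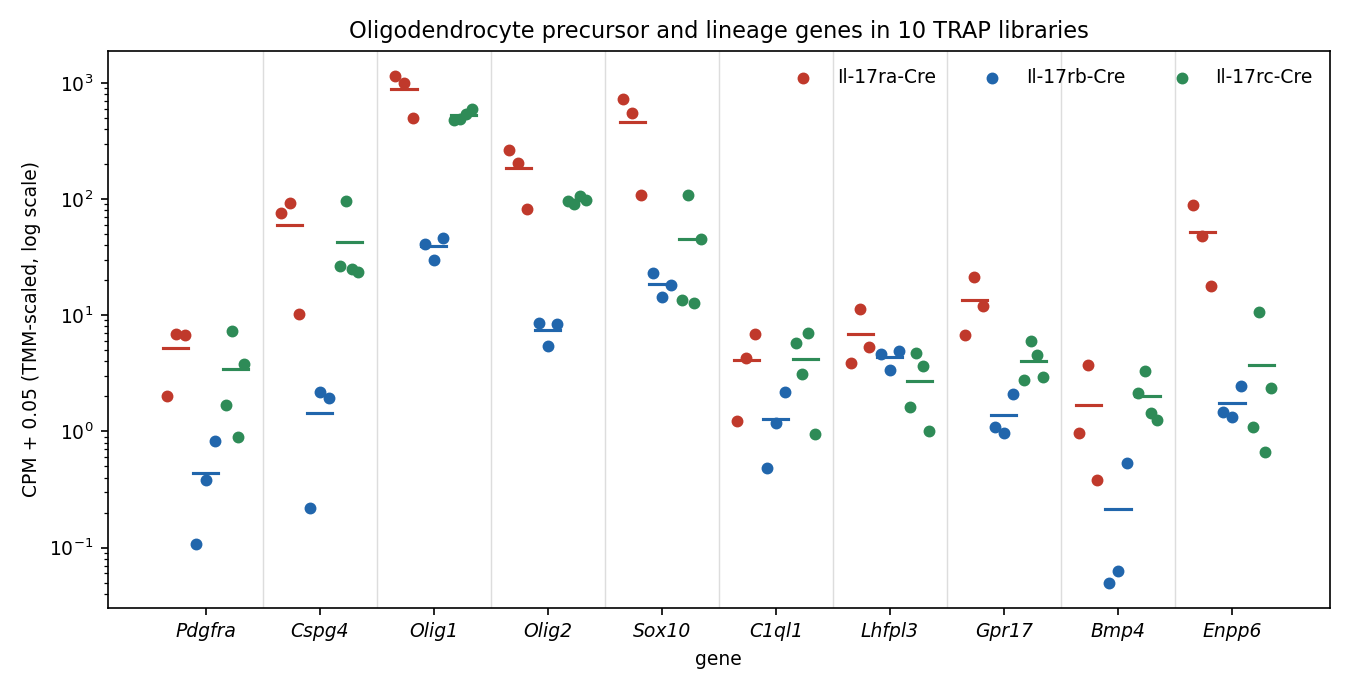
CPM of each of the 10 genes in each library on a log axis after adding 0.05, with 1 point per library, 1 colour per group and a bar at each group's mean. Olig1, Olig2, Sox10, Cspg4 and Enpp6 are lower in all 3 Il-17rb-Cre libraries than in any Il-17ra-Cre library, and Lhfpl3 overlaps between all groups.

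For 4 of the genes the bases upstream of the start are shown, because these genes span the patterns found: Pdgfra and Cspg4, the receptor and proteoglycan of the precursor, Olig2, which stayed even among the Il-17rc-Cre libraries, and Enpp6, which varied most among them. The sequences are from RefSeq promoter windows of GRCm38.p6, 250 bases before to 50 after each start, and only bases upstream of the annotated gene are printed, each on the plus strand, the gene's own. Capitals mark an E-box, CANNTG, the motif that OLIG and other basic helix-loop-helix proteins bind, or AACAAT, a motif of SOX proteins, searched on both strands. The runs lie at chr5:75152001-75152250, chr9:56864854-56865032, chr16:91225300-91225456 and chr8:46986637-46986886.
Pdgfra: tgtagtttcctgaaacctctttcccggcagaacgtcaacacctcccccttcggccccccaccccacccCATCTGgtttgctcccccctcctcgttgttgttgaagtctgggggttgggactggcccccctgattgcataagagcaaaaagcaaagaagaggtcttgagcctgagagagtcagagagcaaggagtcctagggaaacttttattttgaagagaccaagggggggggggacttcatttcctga
Cspg4: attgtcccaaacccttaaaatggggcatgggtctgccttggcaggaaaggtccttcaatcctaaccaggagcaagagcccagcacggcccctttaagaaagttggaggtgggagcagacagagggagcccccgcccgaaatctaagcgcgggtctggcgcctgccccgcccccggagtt
Olig2: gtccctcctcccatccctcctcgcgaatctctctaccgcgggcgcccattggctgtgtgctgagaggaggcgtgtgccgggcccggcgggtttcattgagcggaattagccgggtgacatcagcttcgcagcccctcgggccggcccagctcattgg
Enpp6: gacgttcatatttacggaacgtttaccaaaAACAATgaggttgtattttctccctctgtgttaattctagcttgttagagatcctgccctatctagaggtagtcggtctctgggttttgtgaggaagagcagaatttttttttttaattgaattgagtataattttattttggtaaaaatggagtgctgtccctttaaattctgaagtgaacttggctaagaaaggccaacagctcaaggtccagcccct
In these bases Pdgfra has 1 E-box, 182 bases before the start, and Enpp6 has 1 AACAAT, 220 bases before it, while the printed Cspg4 and Olig2 bases have neither motif. Of the 6 genes with a window in the table (these 4, Lhfpl3 and Bmp4), 3 held CANNTG in the 300 bases, against 72.3% of 32851 windows of that length, and 2 held AACAAT, against 10.7%. CAGCTG, which is 1 of the forms of CANNTG, was in 1 of the 6, against 16.3%. Another SOX motif, ACAAAG, was in none of the 6, against 18.7%. A match is a description of the letters and not a binding site.

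The first comparison asks how the pulled-down RNA of the 10 genes differed between Il-17rb-Cre and Il-17ra-Cre cortex. Every one of the 10 fold changes was negative, and 7 genes were lower at an adjusted p under 0.05 by edgeR's quasi-likelihood test: Pdgfra, Cspg4, Olig1, Olig2, Sox10, Gpr17 and Enpp6. Over all 20301 genes, 24.4% were lower by the same rule. Those 7 genes also had CPM ranges that did not overlap, against 29.2% of all genes. The median log2 fold change of the 10 was -4.11, against -0.09 for all genes tested. With Il-17ra-Cre libraries 1 and 2 left out, Pdgfra, Olig1, Olig2 and Gpr17 were called, 4 of the 10 genes, where 11.9% of all genes were lower.

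Against Il-17rc-Cre, 5 genes were lower in Il-17rb-Cre by the same test (Pdgfra, Cspg4, Olig1, Olig2 and Gpr17), where 21.9% of all genes were lower. The ranges of 6 genes lay apart, with all Il-17rb-Cre values lower, against 25.5% of all genes. The median log2 fold change was -2.43, against 0.02 for all genes. Without Il-17rb-Cre library 1, without Il-17rb-Cre library 2, or without Il-17rc-Cre library 2, the calls of Pdgfra and Gpr17 were lost, and Cspg4, Olig1 and Olig2 were the 3 that remained.

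Between Il-17ra-Cre and Il-17rc-Cre, edgeR called none of the 10 genes, where it called 2.18% of all genes. At an unadjusted p under 0.05 there were 6 of the 10, against 3730 of all 20301 genes, and DESeq2 called 3 of the 10 (10.3% of all genes) and limma-voom with quality weights 6 (22.6%). Sox10, Gpr17 and Enpp6 were higher in every Il-17ra-Cre library than in any Il-17rc-Cre library, which held for 7.92% of all genes. Leaving out Il-17ra-Cre library 3 gave 4 calls, Olig1, Olig2, Sox10 and Enpp6, all higher in Il-17ra-Cre, where 13.7% of all genes were called in either direction. Leaving out Il-17rc-Cre library 2 gave 2, Sox10 and Enpp6, where 3.08% of all genes were called. Each pair of these comparisons has a group in common, so they are not independent of each other.

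**Figure D2:**
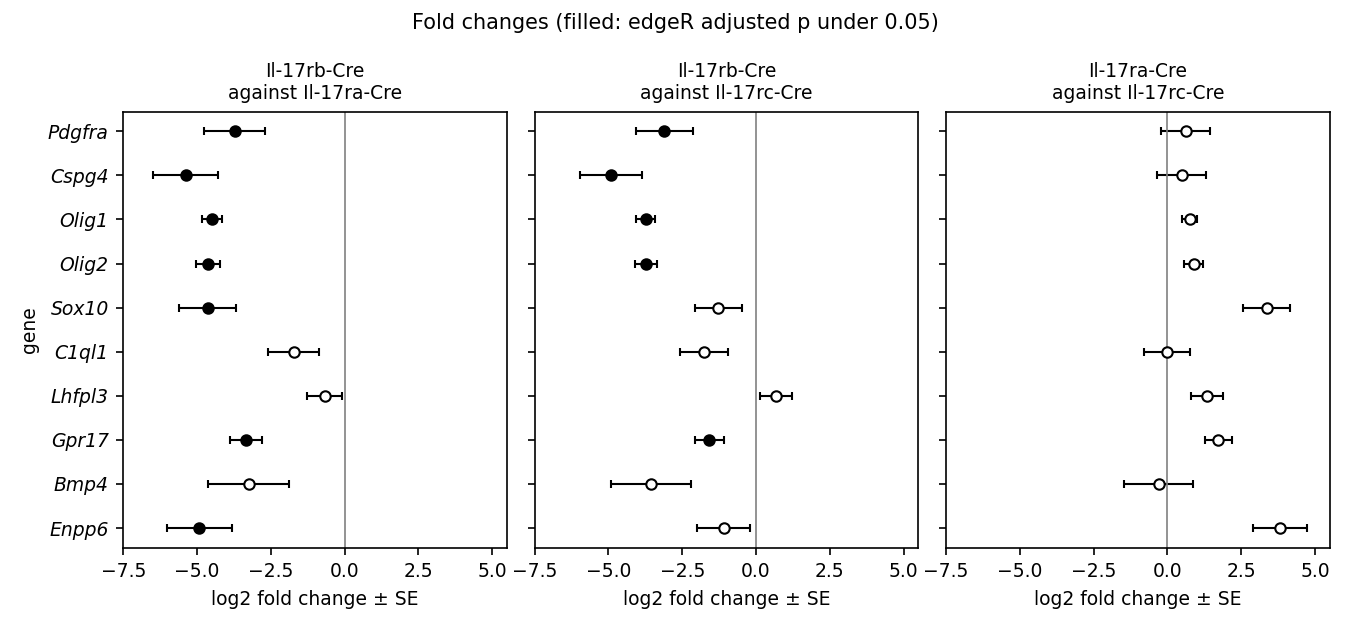
Log2 fold change of each gene in each of the 3 comparisons, from the edgeR fit, with bars of 1 standard error derived from the F value. Filled points have an adjusted p under 0.05. Filled points are seen for 7 genes in Il-17rb-Cre against Il-17ra-Cre, 5 in Il-17rb-Cre against Il-17rc-Cre and none in Il-17ra-Cre against Il-17rc-Cre.

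Pdgfra, the receptor that keeps precursors dividing (ENSMUSG00000029231, chromosome 5, 75152292 to 75198215, GRCm38), was measured at 1.97, 6.85 and 6.74 CPM in Il-17ra-Cre libraries 1 to 3, at 0.0563, 0.334 and 0.772 in Il-17rb-Cre, and at 1.65, 7.29, 0.841 and 3.72 in Il-17rc-Cre libraries 1 to 4. All Il-17rb-Cre values lay below all others, and the other groups overlapped. The log2 fold change was -3.73 ± 1.02 (SE) against Il-17ra-Cre (edgeR adjusted p = 0.015) and -3.11 ± 0.97 against Il-17rc-Cre (edgeR adjusted p = 0.0275). Without Il-17rb-Cre library 2 the edgeR adjusted p values were 0.0548 and 0.0872. Against Il-17rc-Cre the edgeR adjusted p was 0.0676 without Il-17rb-Cre library 1 and 0.065 without Il-17rc-Cre library 2, and limma-voom gave an adjusted p of 0.0736 with all libraries. Between Il-17ra-Cre and Il-17rc-Cre the difference was 0.62 ± 0.84 on the log2 scale (edgeR adjusted p = 0.773).

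Cspg4, which encodes the NG2 proteoglycan (ENSMUSG00000032911, chromosome 9, 56865033 to 56899870), had 75.9, 93.0 and 10.2 CPM in Il-17ra-Cre, 0.169, 2.14 and 1.9 in Il-17rb-Cre, and 26.2, 96.6, 25.1 and 23.3 in Il-17rc-Cre. Again the Il-17rb-Cre values were below all others. Il-17rc-Cre library 2 stood far above its group, and Il-17ra-Cre library 3 far below its own. Cspg4 was lower in Il-17rb-Cre, with log2 fold changes of -5.39 ± 1.1 against Il-17ra-Cre (edgeR adjusted p = 0.00339) and -4.91 ± 1.06 against Il-17rc-Cre (edgeR adjusted p = 0.0046). With Il-17ra-Cre library 3 alone standing for its group, and the spread taken from the other groups, the first edgeR adjusted p was 0.0973.

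Cspg4 and Pdgfra are shared with vessel cells, whose markers were low in Il-17rb-Cre too. The 10 mural markers summed to 123 to 204 CPM in Il-17ra-Cre, 4.37 to 8.92 in Il-17rb-Cre and 501 to 1070 in Il-17rc-Cre. By edgeR, 9 and 10 of the 10 were lower in Il-17rb-Cre against Il-17ra-Cre and Il-17rc-Cre, where 24.4% and 21.9% of all genes were lower. Il-17rc-Cre library 2, the library with 96.6 CPM of Cspg4, was also the one with 1070 CPM of mural markers. Within Il-17ra-Cre, library 3 had the least Cspg4 (10.2 CPM) and the highest mural sum (204 CPM). Vtn made up 124 CPM of that sum, against 69.5 and 54.9 CPM in libraries 1 and 2. The single mural markers were mixed: Vtn, Kcnj8, Acta2 and Tagln were highest in library 3, and Rgs5, Notch3 and Anpep lowest. Pdgfrb, Abcc9 and Myh11 lay between the other Il-17ra-Cre libraries. By edgeR, 3 of the 10 mural markers were lower in Il-17ra-Cre than in Il-17rc-Cre, where 0.798% of all genes were lower. That count ran from 0 to 4 with 1 library left out. Cspg4 differed between these groups by 0.48 ± 0.84 log2 units (edgeR adjusted p = 0.835). The 8 fibroblast markers summed to 5.08 to 25.7 CPM in Il-17ra-Cre, 0.338 to 3.02 in Il-17rb-Cre and 19.3 to 32.1 in Il-17rc-Cre. Of the 7 tested, 2 were lower in Il-17rb-Cre than in Il-17ra-Cre (0 to 4 with 1 library left out), which is near the 24.4% of all genes. Against Il-17rc-Cre, 4 of the 7 were lower, where 21.9% of all genes were lower. Anpep among the mural markers and Slc47a1 and Igf2 among the fibroblast markers were at 0 in every Il-17rb-Cre library. The part of vessel cells in the Cspg4 and Pdgfra values was not tested.

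Olig1 and Olig2 lie next to each other on chromosome 16 and encode basic helix-loop-helix factors of the lineage. Olig1 (ENSMUSG00000046160, 91269772 to 91271933) was at 1143, 995 and 501 CPM in Il-17ra-Cre, 41.1, 30.0 and 46.4 in Il-17rb-Cre, and 479, 484, 543 and 590.2 in Il-17rc-Cre. Il-17ra-Cre library 3 fell inside the range of Il-17rc-Cre, and the Il-17rb-Cre libraries were far below both groups. Olig1 was lower in Il-17rb-Cre, with log2 fold changes of -4.49 ± 0.33 against Il-17ra-Cre (edgeR adjusted p = 1.13e-05) and -3.74 ± 0.31 against Il-17rc-Cre (edgeR adjusted p = 1.47e-05).

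Olig2 (ENSMUSG00000039830, 91225457 to 91228677), which is needed for the precursor to form, was at 264, 204 and 82.4 CPM in Il-17ra-Cre, 8.48, 5.42 and 8.36 in Il-17rb-Cre, and 96.4, 91.1, 107 and 98.8 in Il-17rc-Cre. The Il-17rc-Cre libraries differed from each other by a factor of 1.18 for Olig2 and 1.23 for Olig1, the smallest spreads of the 10 genes in that group. The log2 fold changes of Olig2 were -4.63 ± 0.41 against Il-17ra-Cre (edgeR adjusted p = 3.12e-05) and -3.73 ± 0.38 against Il-17rc-Cre (edgeR adjusted p = 5.78e-05). Between Il-17ra-Cre and Il-17rc-Cre, Olig1 differed by 0.75 ± 0.26 and Olig2 by 0.9 ± 0.32 (edgeR adjusted p = 0.16 and 0.171). Without Il-17ra-Cre library 3 these were 1.03 and 1.25, with edgeR adjusted p of 0.00726 and 0.00466.

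Sox10 (ENSMUSG00000033006, chromosome 15, 79154908 to 79165240), the factor that acts with OLIG2 and later switches on myelin genes, had another pattern. It was at 729.7, 547 and 109 CPM in Il-17ra-Cre, 23.2, 14.2 and 18.1 in Il-17rb-Cre, and 13.4, 108, 12.8 and 45.5 in Il-17rc-Cre. Il-17rc-Cre libraries 1 and 3 were below every Il-17rb-Cre library and libraries 2 and 4 above every one, so those groups overlapped. Sox10 was lower in Il-17rb-Cre against Il-17ra-Cre, at -4.64 ± 0.96 log2 units (edgeR adjusted p = 0.00372, and 0.104 with Il-17ra-Cre libraries 1 and 2 left out). Against Il-17rc-Cre its log2 fold change was -1.28 ± 0.8 (edgeR adjusted p = 0.233). In Il-17ra-Cre against Il-17rc-Cre it was 3.36 ± 0.81 (edgeR adjusted p = 0.0606), and the edgeR adjusted p was 0.0133 without Il-17ra-Cre library 3 and 0.0318 without Il-17rc-Cre library 2.

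C1ql1 and Lhfpl3 are surface or secreted products found in precursors and in some neurons. C1ql1 (ENSMUSG00000045532, chromosome 11, 102939264 to 102946688), a secreted C1q-like protein, was at 1.19, 4.25 and 6.86 CPM in Il-17ra-Cre, 0.432, 1.12 and 2.14 in Il-17rb-Cre, and 5.72, 3.04, 6.93 and 0.906 in Il-17rc-Cre. All 3 groups overlapped. Its log2 fold changes in Il-17rb-Cre were -1.73 ± 0.85 against Il-17ra-Cre (edgeR adjusted p = 0.129) and -1.75 ± 0.81 against Il-17rc-Cre (edgeR adjusted p = 0.115). DESeq2 gave the second an adjusted p of 0.0381.

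Lhfpl3 (ENSMUSG00000106379, chromosome 5, 22746059 to 23275597), a membrane protein with 4 spans, was the gene that differed least between Il-17rb-Cre and the rest. Its values were 3.85, 11.3 and 5.32 CPM in Il-17ra-Cre, 4.62, 3.35 and 4.9 in Il-17rb-Cre, and 1.58, 4.63, 3.58 and 0.949 in Il-17rc-Cre, and every pair of groups overlapped. The log2 fold changes were -0.67 ± 0.59 against Il-17ra-Cre and 0.67 ± 0.55 against Il-17rc-Cre (edgeR adjusted p = 0.396 and 0.358). It was the only 1 of the 10 with a higher fitted level in Il-17rb-Cre than in Il-17rc-Cre. Of its exonic bases, 17.6% lie opposite A930003O13Rik, which had 0 to 194 reads, and the labels do not say whether the counting used strand.

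Gpr17, Bmp4 and Enpp6 mark cells leaving the precursor stage. Gpr17 (ENSMUSG00000052229), a G protein-coupled receptor of committed precursors, was at 6.69, 21.4 and 11.9 CPM in Il-17ra-Cre, 1.03, 0.921 and 2.03 in Il-17rb-Cre, and 2.7, 5.98, 4.52 and 2.86 in Il-17rc-Cre. No 2 groups overlapped, in the order Il-17ra-Cre, Il-17rc-Cre, Il-17rb-Cre. Its log2 fold change in Il-17rb-Cre was -3.33 ± 0.54 against Il-17ra-Cre (edgeR adjusted p = 0.00096) and -1.59 ± 0.49 against Il-17rc-Cre (edgeR adjusted p = 0.0251). The second call was lost without Il-17rb-Cre library 1, Il-17rb-Cre library 2 or Il-17rc-Cre library 2 (edgeR adjusted p = 0.0814, 0.0852 and 0.0592) and with Il-17rc-Cre libraries 1 and 3 left out (0.0502). Il-17ra-Cre against Il-17rc-Cre gave 1.73 ± 0.46 (edgeR adjusted p = 0.0795). Lims2, on the opposite strand, shares 3.6% of the Gpr17 exonic bases and had 193 to 2964 reads.

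Bmp4 (ENSMUSG00000021835, chromosome 14, 46383520 to 46390669), a secreted ligand that differentiating precursors make, was near the limit of detection. It was at 0.917, 3.64 and 0.334 CPM in Il-17ra-Cre, 0.0, 0.0133 and 0.486 in Il-17rb-Cre, and 2.08, 3.26, 1.4 and 1.2 in Il-17rc-Cre. The Il-17rb-Cre values rest on 0, 1 and 34 reads, so 1 library carried nearly all of them, and they overlapped with Il-17ra-Cre and not with Il-17rc-Cre. The log2 fold changes were -3.25 ± 1.38 and -3.55 ± 1.36 (edgeR adjusted p = 0.0849 and 0.0611). With all libraries, Bmp4 passed in both comparisons by DESeq2 (adjusted p = 0.0239 and 0.00722) and by limma-voom (adjusted p = 0.0113 and 0.0132). In edgeR it passed in both without Il-17rb-Cre library 3, which held the 34 reads (adjusted p = 0.00564 and 0.0045). Against Il-17rc-Cre it also passed in edgeR with a filter of 1 CPM in 3 libraries (adjusted p = 0.0462), with only those 2 groups fitted (0.0455) and without Il-17ra-Cre library 3 (0.0491).

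Enpp6 (ENSMUSG00000038173, chromosome 8, 46986887 to 47096762), a choline phosphodiesterase that marks newly forming oligodendrocytes, was at 88.9, 48.3 and 17.7 CPM in Il-17ra-Cre, 1.43, 1.29 and 2.39 in Il-17rb-Cre, and 1.03, 10.7, 0.614 and 2.31 in Il-17rc-Cre. Like Sox10, it was lower in Il-17rc-Cre libraries 1 and 3 than in any Il-17rb-Cre library. Enpp6 was lower in Il-17rb-Cre, at -4.92 ± 1.09 log2 units against Il-17ra-Cre (edgeR adjusted p = 0.0053, and 0.0925 with Il-17ra-Cre libraries 1 and 2 left out), and against Il-17rc-Cre the value was -1.1 ± 0.91 (edgeR adjusted p = 0.364). That value became 0.37 without Il-17rc-Cre library 2. In Il-17ra-Cre against Il-17rc-Cre the log2 fold change was 3.82 ± 0.92 (edgeR adjusted p = 0.0606), with an edgeR adjusted p of 0.0205 without Il-17ra-Cre library 3 and 0.0222 without Il-17rc-Cre library 2.

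The pattern the values turn on is that the OLIG factors and Sox10 did not keep the same proportion in the 3 groups. The ratio of Olig1 to Sox10 CPM was 1.57, 1.82 and 4.58 in Il-17ra-Cre and 1.77, 2.11 and 2.56 in Il-17rb-Cre, and 35.6, 4.47, 42.5 and 13 in Il-17rc-Cre. Between Il-17ra-Cre and Il-17rb-Cre the ratio overlapped although the levels of both genes differed several-fold. In Il-17rc-Cre, library 2 lay within the range of Il-17ra-Cre and the other 3 libraries lay above every library of the other groups. The ratio was picked after the values were seen and is given with no test.

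Olig2 gave the same order against Sox10, with ratios of 0.362 to 0.753 in Il-17ra-Cre, 0.365 to 0.462 in Il-17rb-Cre and 0.843 to 8.38 in Il-17rc-Cre. The ratio of Olig1 to Olig2, in contrast, stayed between 4.32 and 6.09 in all 10 libraries. Sox10 kept its proportion to Nkx6-2, a homeobox factor of maturing oligodendrocytes, at 0.76 to 1.33 across the 10 libraries. In these ratios Olig1 and Olig2 moved as a pair, and Sox10 moved with Nkx6-2, 1 of 19 lineage transcription factors looked at. As with the first ratio, no test was made, and the genes were chosen with earlier results of these data known.

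Markers of other cells differed beside this ratio. The 13 mature oligodendrocyte genes summed to 46584, 31871 and 5619 CPM in Il-17ra-Cre, 1226, 1060 and 1169 in Il-17rb-Cre, and 1279, 4144, 1083 and 2558 in Il-17rc-Cre. Within Il-17rc-Cre, the libraries ranked the same way for these sums as for Sox10 and Enpp6. The 12 astrocyte markers summed to 7063 to 13670 CPM in Il-17ra-Cre, 611 to 639 in Il-17rb-Cre and 11816 to 18477 in Il-17rc-Cre. Within Il-17rc-Cre, libraries 1 and 3, with the highest ratios of Olig1 to Sox10, had the highest sums. That order rests largely on Aldoc, at 6745, 1487, 6342 and 1861 CPM in libraries 1 to 4. Gfap, at 5757, 6488, 6404 and 7748 CPM, was highest in library 4, as were Aldh1l1 and Sox9. The other astrocyte markers were highest in library 1 or 3. Other cells differed as widely between the groups: the 10 microglial markers summed to 685 to 1195 CPM in Il-17ra-Cre, 19.2 to 25.3 in Il-17rb-Cre and 37.9 to 203 in Il-17rc-Cre, and the 8 excitatory neuron markers to 1573 to 6691, 17786 to 20856 and 2179 to 3592 CPM. All 10 microglial markers were lower in Il-17rb-Cre than in Il-17ra-Cre, and all 8 excitatory neuron markers were higher in Il-17rb-Cre in both comparisons. The summed level of the 10 lineage genes was 0.0497 to 0.134 of the summed mature genes in Il-17ra-Cre, 0.0555 to 0.0748 in Il-17rb-Cre and 0.197 to 0.652 in Il-17rc-Cre. That sum is mainly Olig1, which made up 49.3 to 66.7% of it in Il-17ra-Cre, 51 to 53% in Il-17rb-Cre and 59.4 to 76.9% in Il-17rc-Cre. The part of astrocytes in the Olig1 and Olig2 values was not tested.

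**Figure D3:**
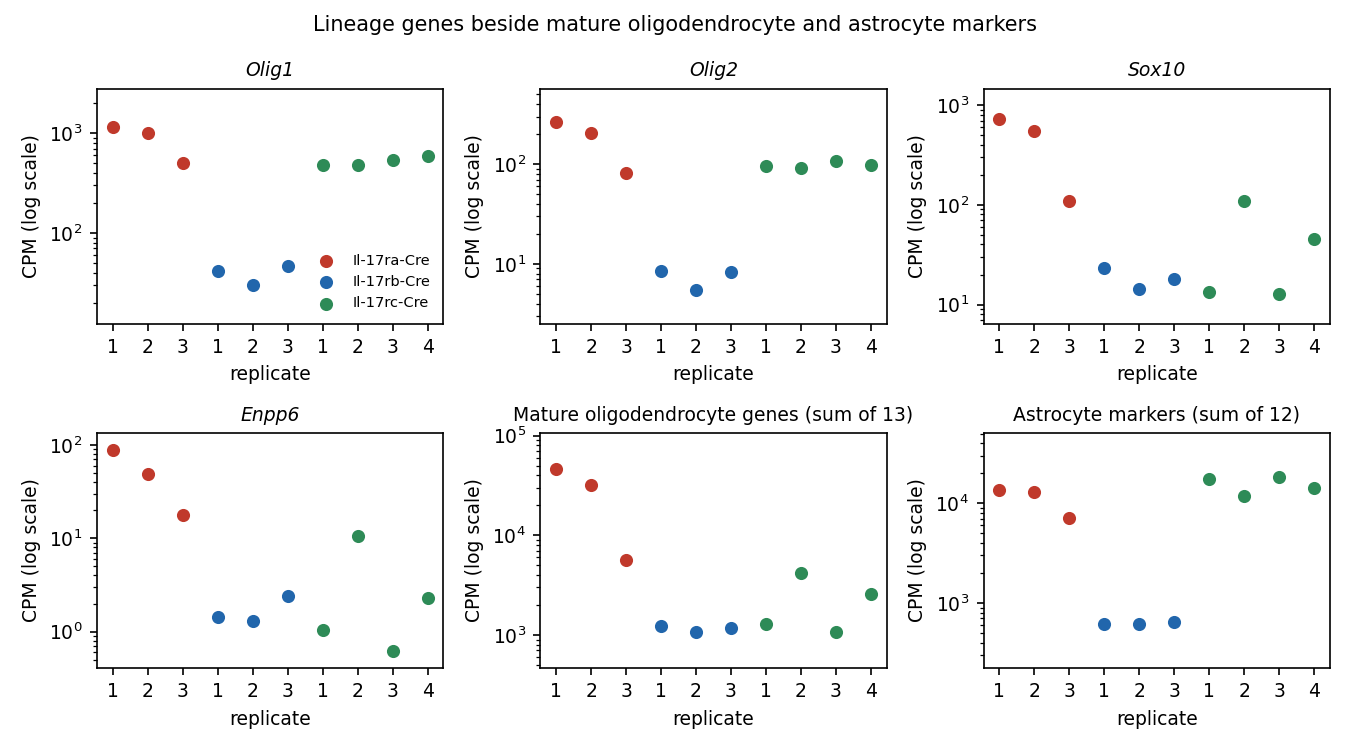
CPM of Olig1, Olig2, Sox10 and Enpp6 and summed CPM of 13 mature oligodendrocyte genes and 12 astrocyte markers, in each library on log axes, with 1 point per library and 1 colour per group. In Il-17rc-Cre, Olig1 and Olig2 are nearly level, Sox10, Enpp6 and the mature genes rank the libraries 2, 4, 1, 3, and the astrocyte sums rank them in reverse. The order of the astrocyte sums rests largely on Aldoc.

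Correlations among the 10 genes, over log2 CPM in 10 libraries, describe the same split. The libraries share the group differences and their depth, so the values are descriptions. The median Pearson r over the 45 pairs was 0.6, and 0.35 once each group's mean was removed. Olig1 and Olig2 had an r of 1.0, and 0.97 within groups, and Sox10 and Enpp6 had 0.98 and 0.93. Lhfpl3 and Gpr17 had 0.46, and 0.83 within groups. Sox10 and C1ql1 had 0.03 and, within groups, -0.64, the lowest of all pairs.

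**Figure D4:**
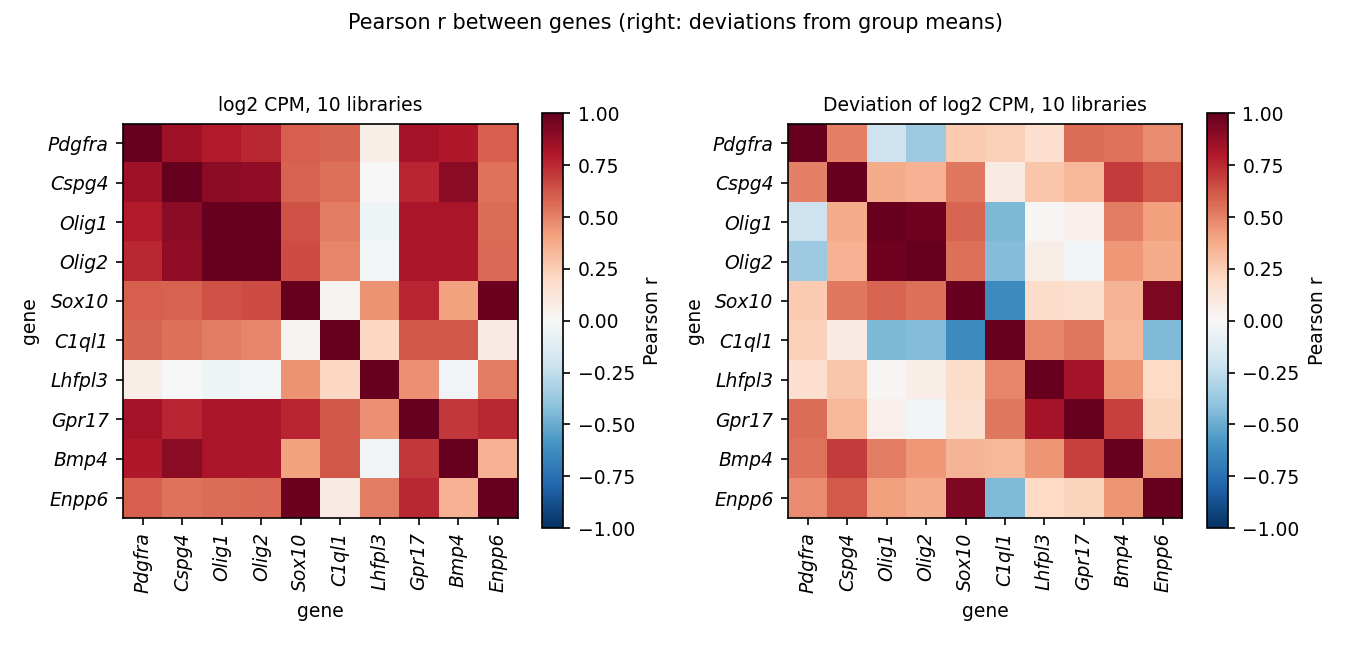
Pearson r between each pair of the 10 genes over 10 libraries, for log2 CPM (left) and for deviations of log2 CPM from the group mean (right), on a colour scale from -1 to 1. Olig1 with Olig2 and Sox10 with Enpp6 are the darkest red pairs in both panels.

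Other genes of the same pathways, from lists of known members, were set beside the 10. Among 19 lineage transcription factors, 12 were lower and 1 higher in Il-17rb-Cre than in Il-17ra-Cre, where 24.4% of all genes were lower and 16.4% higher. Against Il-17rc-Cre, 7 were lower and none higher, beside 21.9% and 17.7% of all genes. In that comparison 9867 of all 20301 genes had an unadjusted edgeR p under 0.05, no smaller a share than the 8 of these 19 factors. Their median log2 fold changes were -2.38 and -1.24, and the 12 became 7 with Il-17ra-Cre libraries 1 and 2 left out. Nkx2-2, a homeobox factor that promotes differentiation, was at 15.4 to 46.6 CPM in Il-17ra-Cre, 0.547 to 0.807 in Il-17rb-Cre and 9.76 to 15.7 in Il-17rc-Cre, with log2 fold changes in Il-17rb-Cre of -5.59 ± 0.45 and -4.16 ± 0.41 (edgeR adjusted p = 1.85e-05 and 4.65e-05). Tcf7l2, a Wnt pathway factor of newly differentiating oligodendrocytes that astrocytes also make, fell, at -4.93 ± 0.4 and -5.02 ± 0.39 (edgeR adjusted p = 2.02e-05 and 1.16e-05). Sox6, a factor that holds precursors undifferentiated and is also found in interneurons, fell, at -2.19 ± 0.2 and -2.13 ± 0.19 (edgeR adjusted p = 3.72e-05 and 2.6e-05).

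Between Il-17ra-Cre and Il-17rc-Cre, 2 of the 19 factors were higher and 1 lower, where 1.38% of all genes were higher and 0.798% lower. Nkx6-2 was at 772, 577 and 144 CPM in Il-17ra-Cre and 14.9, 104, 13.8 and 45.4 in Il-17rc-Cre, a log2 difference of 3.48 ± 0.75 (edgeR adjusted p = 0.0466). Zfp488, a co-repressor of the lineage, was higher by 3.17 ± 0.58 (edgeR adjusted p = 0.0384). Hes1, a Notch target that opposes differentiation and is also made by astrocytes, was lower, at -1.77 ± 0.17 (edgeR adjusted p = 0.0131). The counts for the list ran from 0 to 9 higher and 0 to 2 lower when 1 library at a time was left out, with 9 and 2 without Il-17ra-Cre library 3. Nkx6-2 and Zfp488 passed without Il-17ra-Cre library 3 and without Il-17rc-Cre library 2, and missed without any 1 of the other 8 libraries (edgeR adjusted p = 0.0729 to 0.164 and 0.0543 to 0.138). Hes1 missed without Il-17ra-Cre library 1, Il-17ra-Cre library 2 or Il-17rc-Cre library 3 (edgeR adjusted p = 0.0579, 0.0576 and 0.056).

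The 11 other precursor markers were mixed, with 4 lower and 1 higher in Il-17rb-Cre against each of the other groups. Over all genes, 24.4% were lower and 16.4% higher than in Il-17ra-Cre, and 21.9% and 17.7% than in Il-17rc-Cre. These counts are therefore not far from the share of all genes. Ptprz1, a receptor phosphatase of precursors that astrocytes make too, was at 39.4 to 66.5 CPM in Il-17ra-Cre, 0.943 to 4.78 in Il-17rb-Cre and 83.3 to 119 in Il-17rc-Cre, with log2 fold changes in Il-17rb-Cre of -4.16 ± 0.51 and -4.96 ± 0.52 (edgeR adjusted p = 0.000206 and 6.84e-05). Neu4, a sialidase, fell by 3.52 ± 0.83 against Il-17ra-Cre (edgeR adjusted p = 0.00715). Megf11, a cell adhesion receptor also made by neurons, was the 1 higher gene in both comparisons, by 0.97 ± 0.28 and 1.33 ± 0.26 (edgeR adjusted p = 0.0198 and 0.00269). With 1 library left out, 0 to 1 of the 11 were higher than in Il-17ra-Cre, so the first of these calls was not stable.

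Of the 8 tested genes of newly formed oligodendrocytes, 3 were lower in Il-17rb-Cre than in Il-17ra-Cre, where 24.4% of all genes were lower. Against Il-17rc-Cre, 2 were lower and 1 higher, beside 21.9% and 17.7% of all genes, so those counts are near the share of all genes. Itpr2, a calcium channel of the endoplasmic reticulum, was at 10.6 to 28 CPM in Il-17ra-Cre, 0.582 to 1.44 in Il-17rb-Cre and 16.6 to 21.7 in Il-17rc-Cre, with log2 fold changes of -4.23 ± 0.43 and -4.15 ± 0.42 (edgeR adjusted p = 7.01e-05 and 5.49e-05). Bcas1, a marker of early myelinating cells, was lower than in Il-17ra-Cre at -5.1 ± 0.84 (edgeR adjusted p = 0.00108). Bcas1 was also higher in Il-17ra-Cre than in Il-17rc-Cre, at 3.65 ± 0.7 (edgeR adjusted p = 0.039), a call that was lost without any 1 library other than Il-17ra-Cre library 3 and Il-17rc-Cre library 2 (edgeR adjusted p = 0.0637 to 0.146).

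All 13 mature oligodendrocyte genes were lower in Il-17rb-Cre than in Il-17ra-Cre, with a median log2 fold change of -4.59, beside the -4.11 of the 10 lineage genes. With Il-17ra-Cre libraries 1 and 2 left out, 7 of the 13 were lower, with a median of -2.42, beside 4 and -2.98 for the 10 lineage genes. Against Il-17rc-Cre the mature genes had a median of -0.75 with 1 gene called, and the 10 lineage genes a median of -2.43 with 5 called. Without Il-17rc-Cre library 2 the medians were -0.23 (1 called) and -2.14 (3 called), and without Il-17rc-Cre libraries 1 and 3 they were -1.46 (4 called) and -2.91 (4 called). The 1 gene was Cnp, an enzyme of non-compact myelin, at -2.05 ± 0.56 (edgeR adjusted p = 0.0154, and 0.0507 and 0.0559 without Il-17rb-Cre library 1 or 2), and the count ran from 0 to 2 with 1 library left out. Between Il-17ra-Cre and Il-17rc-Cre, 11 of the 13 were higher by edgeR, 13 without Il-17ra-Cre library 3, 12 without Il-17rc-Cre library 2 and 0 without any 1 of the other 8 libraries. Their median log2 fold change in those last fits was 3.11 to 3.73, against 3.69 with all libraries, and all 13 had an unadjusted p under 0.05 in each of them. Whether the lists differed from each other was not tested.

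The signals that act on precursors were read in the PDGF and BMP lists. Of 5 PDGF genes, 3 were lower and 1 higher in Il-17rb-Cre against each of the other groups. The shares of all genes were 24.4% lower and 16.4% higher against Il-17ra-Cre, and 21.9% and 17.7% against Il-17rc-Cre. Pdgfa, the ligand that neurons and astrocytes supply to precursors, had a mean of 37.6 ± 2.73 CPM in Il-17rb-Cre and 68.7 ± 8.36 in Il-17ra-Cre (SD, n = 3 each) and fell by 0.87 ± 0.28 log2 units (edgeR adjusted p = 0.0304). That call was lost without any 1 of the Il-17rb-Cre libraries, Il-17ra-Cre library 1 or Il-17ra-Cre library 3 (edgeR adjusted p = 0.0606 to 0.085). Pdgfrb, the second receptor, which is a mural cell gene, was at 8.12 to 9.54 CPM in Il-17ra-Cre, 0.0, 0.0 and 0.172 in Il-17rb-Cre and 25.3 to 47.9 in Il-17rc-Cre.

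Over all genes, as given above, 24.4% were lower and 16.4% higher in Il-17rb-Cre than in Il-17ra-Cre, and 21.9% and 17.7% than in Il-17rc-Cre. Of 21 BMP pathway genes, 9 were lower in Il-17rb-Cre in each comparison, 8 of them in both. Of the same 21, 2 were higher than in Il-17ra-Cre and 3 higher than in Il-17rc-Cre. With Il-17ra-Cre libraries 1 and 2 left out, 5 were lower than in Il-17ra-Cre. None of the 21 was called between Il-17ra-Cre and Il-17rc-Cre by edgeR, where 3 had an unadjusted p under 0.05, against 3730 of all 20301 genes. Id3, a BMP target that blocks helix-loop-helix factors, was at 282 to 528 CPM in Il-17ra-Cre, 18.2 to 27.3 in Il-17rb-Cre and 235 to 362 in Il-17rc-Cre. It fell in Il-17rb-Cre, with log2 fold changes of -4.19 ± 0.3 and -3.78 ± 0.29 (edgeR adjusted p = 1.12e-05 and 1e-05). Id1, a second such target, fell too, at -3.58 ± 0.3 and -3.82 ± 0.3 (edgeR adjusted p = 2.43e-05 and 1.07e-05). Id1 and Id3 are also made by astrocytes and vessel cells, and all 12 astrocyte markers were lower in Il-17rb-Cre in both comparisons. The part of these cells in the BMP list was not tested.

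Of 12 tested relatives and partners of the 10 genes, 4 were lower and 2 higher in Il-17rb-Cre against Il-17ra-Cre, where 24.4% of all genes were lower and 16.4% higher. Against Il-17rc-Cre 3 were lower and 2 higher, beside 21.9% and 17.7% of all genes, so the counts are not far from the share of all genes. Lhfpl2 fell, with log2 fold changes of -3.64 ± 0.54 and -2.98 ± 0.51 (edgeR adjusted p = 0.00057 and 0.00121), whereas Lhfpl4, which acts with GABA-A receptors at inhibitory synapses, was higher by 1.29 ± 0.26 and 1.19 ± 0.23 (edgeR adjusted p = 0.00285 and 0.00279, the first 0.063 with Il-17ra-Cre libraries 1 and 2 left out). Lhfpl3 itself, as given above, passed in neither comparison. Enpp4 and Enpp2, relatives of Enpp6, were higher in Il-17ra-Cre than in Il-17rc-Cre by 2.42 ± 0.48 and 3.35 ± 0.64 (edgeR adjusted p = 0.042 and 0.0384). Both calls were lost without any 1 library other than Il-17ra-Cre library 3 and Il-17rc-Cre library 2 (edgeR adjusted p = 0.0653 to 0.157 and 0.0637 to 0.146).

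**Figure D5:**
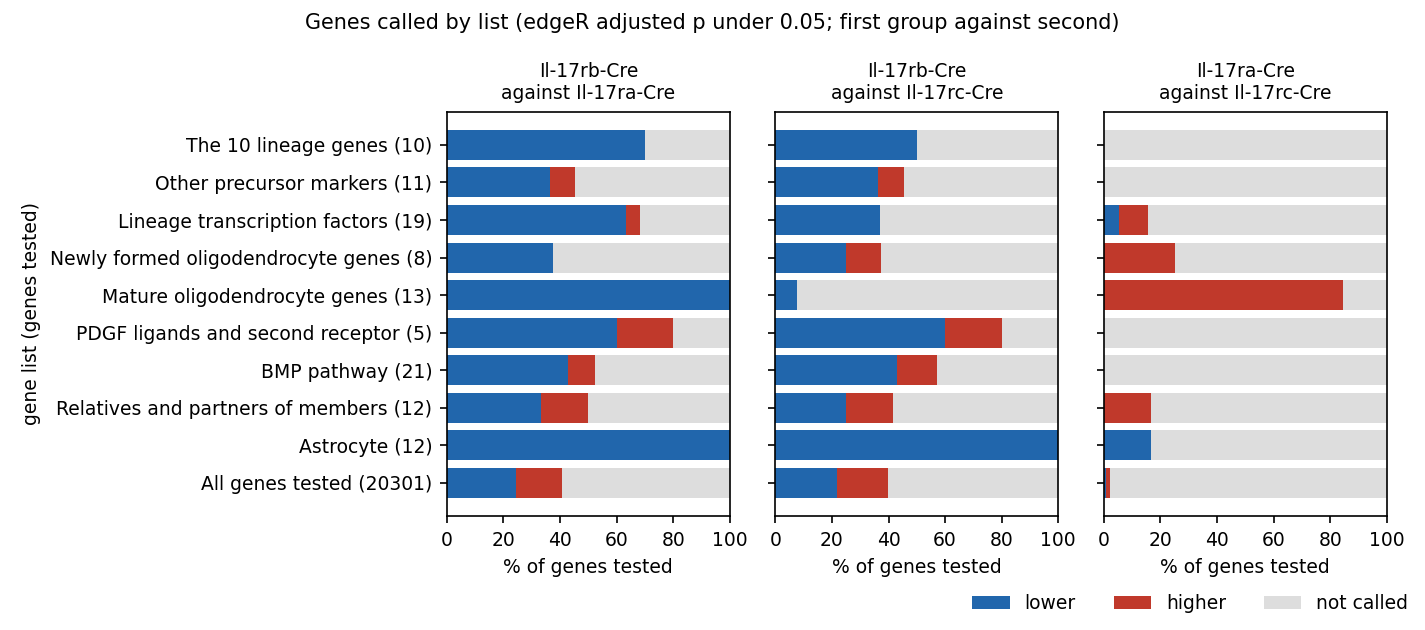
Percent of the tested genes of each list that were lower (blue), higher (red) or not called (grey) at an edgeR adjusted p under 0.05, for the 10 lineage genes, 7 pathway lists, the astrocyte markers and all genes tested, in the 3 comparisons. All 13 mature oligodendrocyte genes are blue in Il-17rb-Cre against Il-17ra-Cre and 1 of them against Il-17rc-Cre.

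The genes whose levels followed the mean of the 10 most closely were sought among 12407 named genes, by Pearson r of log2 CPM over the 10 libraries. The 8 highest were Ggcx (r = 0.986), Marcksl1 (0.981), Rbpj, C3, Tmc6, Cmtm7, Sh3bp2 and Hpgd (0.977 to 0.974). Marcksl1, an actin-regulating protein, was at 391, 403 and 194 CPM in Il-17ra-Cre, 29.1, 27.1 and 42.3 in Il-17rb-Cre, and 101, 222, 94.9 and 144 in Il-17rc-Cre. By deviations from group means, which leave out the group differences, the 8 highest were Prkcd (0.958), Ggcx (0.954), Csmd2, Ubr4, Timeless, Ints6, Renbp and Tufm, and Ggcx was the 1 gene in both sets.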

How the data were processed

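The table held whole-number counts of reads per Ensembl gene for 10 libraries; the authors deposited it as raw counts made with STAR 2.7.5c on GRCm38, per the submitters' processing notes. Of 55536 identifiers, 55450 matched a symbol in the reference tables, and the other 86 held at most 0.0191% of a library's counts. Libraries had 39692925 to 165844244 counts and 21205 to 24790 genes with a count, no pair was identical, and all columns belonged to a sample. Nothing says that replicates came from separate animals, so the p-values measure only the spread between these libraries. Counts were tested with edgeR 4.0.16 (R 4.3.3; TMM scaling, filterByExpr by group with the IL-17 receptor genes kept, quasi-likelihood F test), all 10 libraries in 1 model, with Benjamini-Hochberg adjustment over 20301 genes and a threshold of 0.05; the common dispersion was 0.239. The standard errors of edgeR fold changes were derived as the absolute log2 fold change divided by the square root of the F value. CPM values are TMM-scaled, and CPM per kb divides them by exonic length from the GENCODE annotation. The method was tested on simulated counts. Alternatives used DESeq2 1.42.0, limma 3.58.1 (voom), other scalings and filters, only the groups compared, a replicate block, and each library left out. The ribosomal pull-down, the amplification of small RNA amounts and reads shared with overlapping genes can all shift a gene's count.

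The 10 genes and the lists were chosen with earlier results of these data known. From each list the text names genes out of the up to 3 with the smallest adjusted p past the threshold in a comparison. Genes alike in pattern were the 8 with the highest Pearson r to the mean of the centred log2 CPM of the 10 genes, among named genes whose mean log2 CPM reached 1. Promoter windows came from the RefSeq table of GRCm38.p6, which gave 6 of the 10 genes.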

Additional observations from a re-analysis of the deposited data

Results flagged for a closer look

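In groups of 4, a library whose gap to its nearest neighbour exceeds Dixon's critical share of the group's range was set aside for a second look; only Il-17rc-Cre has 4 libraries, and chance alone sets aside about 1 in 20 such values. Of 34 genes, sums and ratios looked at, some of the ratios being others on another scale, 4 were set aside, all in Il-17rc-Cre library 2. These were Cspg4 at 96.6 CPM (23.3 to 26.2 in the other 3), Enpp6 at 10.7 CPM (0.614 to 2.31), the summed mural markers at 1070 CPM (501 to 582) and the summed fibroblast markers at 32.1 CPM (19.3 to 19.4). Their part in each other was not tested.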

How the results depend on the processing

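Of the 210 alternative values for single genes in each comparison, 203 kept their direction and side of the threshold in Il-17rb-Cre against Il-17ra-Cre, 190 in Il-17rb-Cre against Il-17rc-Cre and 179 in Il-17ra-Cre against Il-17rc-Cre. Leaving out Il-17ra-Cre libraries 1 and 2 lowered the first count of lineage genes from 7 to 4 and of all genes from 8268 to 4192; fewer libraries were then tested. Leaving out 1 library gave 3 to 6 of the 10 genes in the second comparison. In Il-17ra-Cre against Il-17rc-Cre the 10 genes had 3 calls by DESeq2, 2 with a filter of 1 CPM in 3 libraries, 6 by limma-voom, and 0 to 4 with 1 library left out. All genes had 2101, 691 and 4579 calls there under the first 3 settings, 1 with only the 2 groups fitted, and 0 to 2886 with 1 library left out, against 443. edgeR gave 0 without Il-17ra-Cre libraries 1 and 2 and 0 without Il-17rc-Cre libraries 1 and 3 (3121 and 2244 at an unadjusted p under 0.05); the cause was not tested beyond the loss of libraries. Enpp6 turned to 0.52 by limma-voom, and to 0.37 without Il-17rc-Cre library 2 (-1.48 to 0.37 with 1 library left out), in Il-17rb-Cre against Il-17rc-Cre. In Il-17ra-Cre against Il-17rc-Cre, none of the turned values passed: without Il-17ra-Cre libraries 1 and 2, Cspg4 was -2.13, Olig1 -0.14, Olig2 -0.33 and C1ql1 0.64; without Il-17rc-Cre libraries 1 and 3, Pdgfra was -0.14, Cspg4 -0.04 and C1ql1 1.0; by limma-voom Bmp4 was 0.27; with 1 library left out Cspg4 ran from -0.02 to 1.26, C1ql1 from -0.61 to 0.35 and Bmp4 from -1.72 to 0.2. Per kb, the median ratio of lineage to mature genes was 0.126, 0.142 and 0.809 in Il-17ra-Cre, Il-17rb-Cre and Il-17rc-Cre.

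Deviations of same-numbered libraries had r from -0.08 to 0.18 over 9 pairs, by title or by library name. Pairs that shared neither number had r from -0.19 to 0.08 over 22 pairs. Whether the replicate numbers pair the samples was not settled by these values. With a replicate block by title number, Il-17ra-Cre against Il-17rc-Cre had 2 calls over all genes, and 1 by library number; in Il-17rb-Cre against Il-17rc-Cre, C1ql1 passed with the first (adjusted p = 0.025, edgeR) and Gpr17 missed with the second (0.06). Depth limits Pdgfra and Bmp4 most, with 54 reads or fewer in each Il-17rb-Cre library.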
